A study of Arabidopsis thaliana with 8 samples.

Results

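The genes described are 6 nuclear genes of the chloroplast NADH dehydrogenase-like (NDH) complex: 2 subunits, NdhS and NdhN, and 4 factors, CRR41, CRR21, OTP85 and PIFI. They were chosen by locus among spots that map to a single gene, and each had 1 spot, out of 3439 spots and 689 loci with such a spot. Transcripts were measured on 8 single-colour arrays of total RNA of Arabidopsis thaliana, all of ecotype Columbia 0. The plants studied were an antisense line of tatA, called a mutant in another label field (tatA, n = 4 arrays), and the others were wild type (WT, n = 4 arrays). The TatA protein belongs to the twin-arginine translocase, which moves folded proteins across the thylakoid membrane on the energy of the ion gradient. Tissue, plant age, the promoter of the antisense construct and whether the line is 1 transformant are not given in the labels, and none of 18 marker genes of leaf, root, seed and other cell types had a single-gene spot to check the tissue by.

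NDH sits in the thylakoid membrane, takes electrons from ferredoxin on the stromal side and passes them to plastoquinone, pumping protons into the lumen. It forms a supercomplex with photosystem I and carries part of cyclic electron flow. Its subunits come from plastid and nuclear genes, and the plastid ndh transcripts need RNA editing by nuclear-encoded pentatricopeptide repeat (PPR) proteins before they encode the right amino acids. Many of its factors were found as chlororespiratory reduction (crr) mutants, which lack the short rise in chlorophyll fluorescence after the light is turned off.

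Median spot intensity was 0.365 to 0.390 on the tatA arrays and 0.429 to 0.531 on the WT arrays. Because of this difference the scaling between arrays matters for every value below. Deposited intensities are linear and end at an upper limit, and changes are given as log2 differences after quantile normalization, which gives all arrays 1 distribution. Arrays 1 and 2 of a group were more alike than the rest, and so were arrays 3 and 4 (consensus correlation 0.546), so p-values that treat 4 arrays as independent may be too small. No label says what the numbers mark or whether the arrays came from separate plants, so p-values measure the spread between these arrays, which may be technical. The number of arrays limits the precision of all values. In such RNA from whole samples, fewer cells of a type and less RNA per cell cannot be told apart.

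The main fit had group as its only term. Of the 6 NDH genes, CRR41 was higher in tatA than in WT and passed this test. The other 5 did not pass (limma, Benjamini-Hochberg adjusted p under 0.05 over 3261 rows). The count is 1 of 6, in a comparison that called 32.1% of all rows, 15.3% as higher and 16.8% as lower in tatA. The count of members called is thus no larger than the background. The median log2 change of the 6 genes was 0.15, beside -0.09 for all rows. It was 0.15 for the 2 subunits and -0.15 for the 4 factors. The mean change of NdhS was positive and that of CRR21 negative under each of 4 scalings, but whether they passed depended on the scaling. For NdhS and CRR41, passing also depended on the fit. CRR41 did not pass with replicates 1-2 and 3-4 as a random block (limma adjusted p = 0.0659, with 16.5% of rows called). Nor did it pass with each pair averaged (limma adjusted p = 0.116, 1.75% called) or replicates 1-2 alone (limma adjusted p = 0.154, 28.6% called). With the replicate number as a block after quantile normalization, 2 of 6 passed, CRR41 and NdhS, where 31.5% of all rows were called. NdhN and OTP85 had changes whose 95% intervals held 0 under every scaling, and PIFI was too dim for its change to be fixed.

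**Figure D1:**
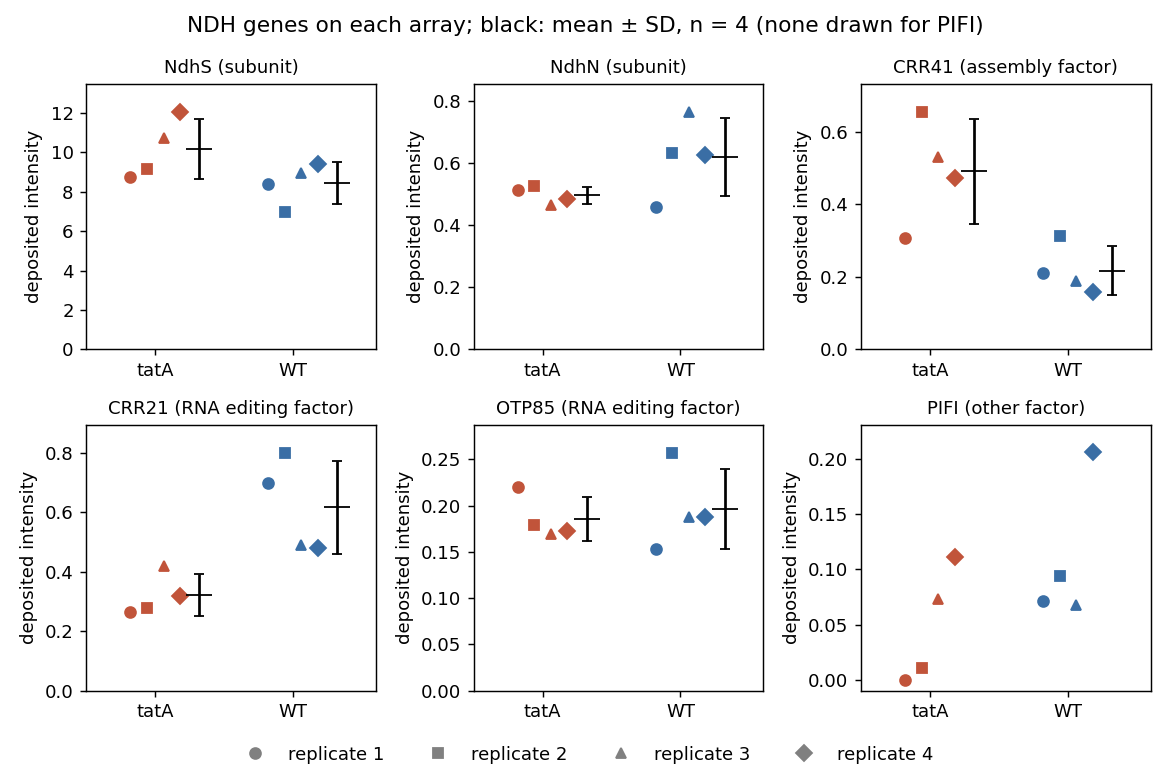
Deposited spot intensity (linear scale, no unit given) of the 6 NDH genes on each of the 4 tatA and 4 WT arrays, 1 symbol per replicate number, with the mean ± SD in black except for PIFI, which is listed at 0 on 1 tatA array. Of the means drawn, those of NdhS and CRR41 are higher and those of NdhN, CRR21 and OTP85 lower in tatA. On this scale the median row lies at a log2 change of -0.47. The groups are apart for CRR21, as for 43% of all rows on this scale. They meet at tatA replicate 1 and WT replicate 2 for CRR41, and overlap in the other panels.

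NdhS (AT4G23890, spot 77) is the subunit with an SH3-like fold that forms the docking site for ferredoxin. It was a bright spot, with intensities of 8.77, 9.13, 10.7 and 12.04 on tatA replicates 1 to 4, against 8.42, 6.99, 8.96 and 9.42 on WT replicates 1 to 4. Each tatA array was above the WT array of the same number, but the groups overlapped, since WT replicates 3 and 4 exceeded tatA replicate 1. The means were 10.2 ± 1.51 in tatA and 8.45 ± 1.06 in WT (SD, n = 4 arrays each).

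After quantile normalization the NdhS change was 0.23 on the log2 scale (SE 0.15, 95% interval -0.11 to 0.56) and did not pass (limma adjusted p = 0.266). A fit with the number as a replicate block, which compares arrays of the same number, gave the same change a limma adjusted p = 0.0459, so that it passed (31.5% of rows were called in that fit), and it was positive in all 4 numbered pairs. The size also depended on the scaling. Relative to the median intensity of its array, NdhS stood at 23.6, 25.04, 27.5 and 32.7 in tatA, against 19.6, 16.2, 16.9 and 17.99 in WT, and here the groups did not overlap, as was so for 35.8% of all rows after median centring. With median centring the log2 change was 0.62 and with 75th percentile scaling 0.66, and both passed (limma adjusted p = 0.00803 and 0.0046, where 31.5% and 30.9% of rows were called). On the deposited scale it was 0.26 and did not pass (limma adjusted p = 0.12). The mean change of NdhS was thus positive under all 4 scalings, between 0.23 and 0.66. Its 95% interval held 0 after quantile normalization and on the deposited scale (-0.022 to 0.55 there). With values centred on the 50 nearest spot numbers the change was 0.17 (limma adjusted p = 0.459). After quantile normalization the change was 0.12 without WT replicate 2 (limma adjusted p = 0.535) and 0.15 without tatA replicate 4 (limma adjusted p = 0.502).

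NdhN (AT5G58260, spot 2514) is a nuclear-encoded subunit of the stromal arm, known as subcomplex A. Its intensities were 0.512, 0.526, 0.465 and 0.485 on the tatA arrays, against 0.457, 0.632, 0.764 and 0.625 on the WT arrays. The tatA values lay close together, and WT replicate 1 fell below all of them while the other 3 WT arrays lay above. The log2 change was 0.076 (SE 0.15, 95% interval -0.27 to 0.42, limma adjusted p = 0.724), positive in 2 of 4 numbered pairs. On the deposited scale it was -0.30 (limma adjusted p = 0.205). The interval leaves room for log2 changes from -0.27 to 0.42, and that on the deposited scale for changes from -0.70 to 0.11. A small change in either direction was thus not detectable with 4 arrays per group.

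CRR41 (AT1G51100, spot 3942) is a stromal protein needed to assemble subcomplex A, the arm that holds NdhN. Its intensities were 0.307, 0.655, 0.532 and 0.472 on tatA replicates 1 to 4, against 0.211, 0.313, 0.188 and 0.159 on WT replicates 1 to 4. All tatA arrays were above the same-numbered WT array, and on the deposited scale the groups met only at tatA replicate 1 and WT replicate 2. The means were 0.491 ± 0.144 in tatA and 0.218 ± 0.0673 in WT (SD, n = 4 arrays each), a ratio of 2.26.

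After normalization the groups of CRR41 did not overlap, as was so for 35.5% of all rows. CRR41 rose by 1.52 on the log2 scale (SE 0.33, 95% interval 0.76 to 2.27, limma adjusted p = 0.00868), or 2.86-fold. A change of at least this size, in either direction, was seen in 12.3% of all rows, and 55 of the 646 rows with a named locus rose more. CRR41 also passed under the 3 other scalings (log2 changes from 1.17 to 1.57) and in all 8 fits that left out 1 array (1.35 to 1.75, limma adjusted p from 0.00526 to 0.0263).

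The size of the CRR41 rise differed between the replicate pairs, at 0.75 and 1.32 for replicates 1 and 2 and 1.99 and 2.001 for replicates 3 and 4. With the pairs 1-2 and 3-4 of each group as a random block CRR41 did not pass (limma adjusted p = 0.0659, with 16.5% of rows called). Nor did it pass with each pair averaged (limma adjusted p = 0.116, with 1.75% of rows called). Neither fit matches tatA arrays to the WT arrays of the same number. The fit with the replicate number as a block does, and there CRR41 passed (limma adjusted p = 0.0105, 95% interval 0.84 to 2.19, with 31.5% of rows called). The spot numbered before CRR41, spot 3941, also rose (log2 change 0.94, limma adjusted p = 0.0121), and the spot after it, 3943, fell by 0.98 on the log2 scale (limma adjusted p = 0.0432). With values centred on the 50 nearest spot numbers CRR41 rose by 1.22 (limma adjusted p = 0.0077, with 31.7% of rows called).

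**Figure D2:**
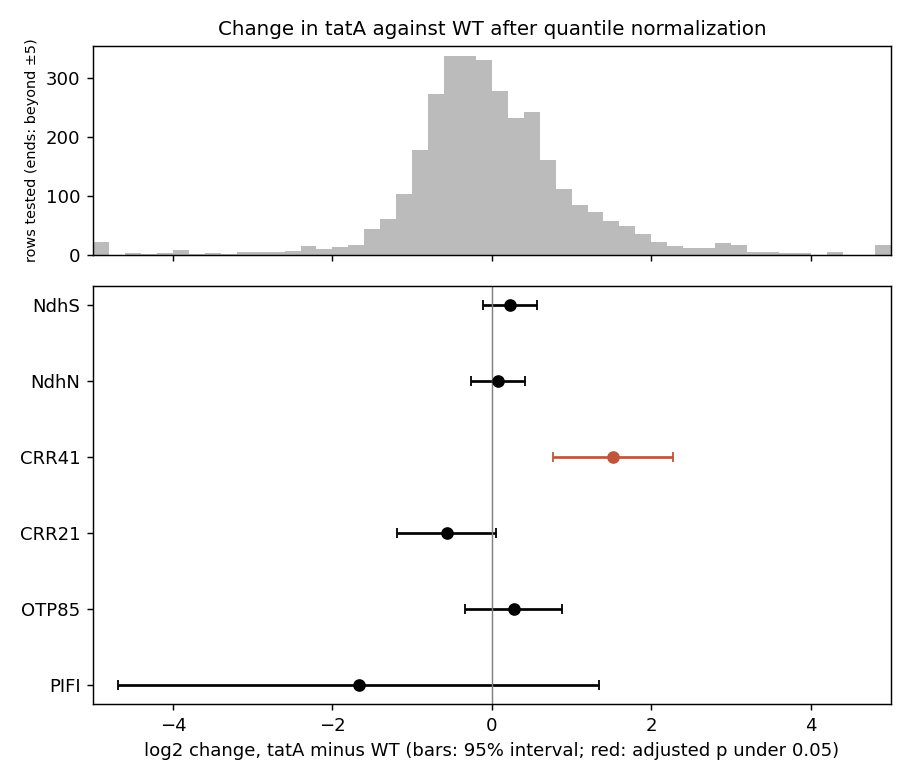
Top, the log2 change (tatA minus WT, after quantile normalization) of all 3261 rows tested. Bottom, the same quantity for the 6 NDH genes with 95% intervals. The interval of CRR41, 0.76 to 2.27, lies above 0, and those of the other 5 genes cross 0.

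CRR21 (AT5G55740, spot 1947) and OTP85 (AT2G02980, spot 4499) are PPR proteins of the chloroplast that each specify an RNA editing site in the plastid transcript of ndhD, a membrane subunit. CRR21 had intensities of 0.265, 0.279, 0.420 and 0.318 on tatA replicates 1 to 4, against 0.697, 0.797, 0.491 and 0.478 on WT replicates 1 to 4. All 4 tatA values were below all 4 WT values on the deposited scale, where 43% of all rows did not overlap and the median row lay at -0.47. The means were 0.321 ± 0.0700 in tatA and 0.616 ± 0.157 in WT (SD, n = 4 arrays each).

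After quantile normalization CRR21 had a log2 value of -0.57 (SE 0.27, 95% interval -1.19 to 0.057) and did not pass (limma adjusted p = 0.145). On the deposited scale the value was -0.93 and passed (limma adjusted p = 0.0132, with 42.6% of rows called there). On the deposited scale CRR21 was lower in tatA at each replicate number, 3 and 4 included. After quantile normalization the difference came from replicates 1 and 2, at -1.15 and -1.28, while replicates 3 and 4 gave 0.25 and -0.089. Fitted alone, replicates 1-2 had a change of -1.21 that passed (limma adjusted p = 0.00818, with 28.6% of rows called) and replicates 3-4 a value of 0.081 that did not (limma adjusted p = 0.766, with 44.3% of rows called). Between the pairs the WT arrays moved more than the tatA arrays: relative to their array median, WT stood at 1.63 and 1.85 on replicates 1 and 2 and at 0.924 and 0.912 on replicates 3 and 4, and tatA at 0.714 and 0.766, then 1.08 and 0.863. The difference between the pairs was not tested. The spot numbered after CRR21, spot 1948, rose by 1.59 (limma adjusted p = 0.0327). The spot before CRR21, 1946, was also lower in tatA on replicates 1 and 2, listed at 0 on both against 0.3152 and 0.3559 in WT. On replicates 3 and 4 it had 0.1915 and 0.1045 in tatA, against 0.1792 and 0.1394 in WT. Its log2 value of -3.74 uses the value set for 0 and did not pass (limma adjusted p = 0.121). Whether the 2 spots share a cause was not tested. With centring on the 50 nearest spot numbers CRR21 was at -0.56 (limma adjusted p = 0.1).

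OTP85 was dimmer and showed no such split. Its intensities were 0.220, 0.179, 0.169 and 0.173 on the tatA arrays, against 0.153, 0.256, 0.188 and 0.188 on the WT arrays. The tatA range lay inside the WT range, with means of 0.185 ± 0.0236 in tatA and 0.196 ± 0.0434 in WT (SD, n = 4 arrays each). The log2 change was 0.27 (SE 0.27, 95% interval -0.34 to 0.88, limma adjusted p = 0.462), positive in 3 of 4 numbered pairs, and -0.066 on the deposited scale (limma adjusted p = 0.865). Without WT replicate 2, the brightest array for OTP85, it was 0.46 (limma adjusted p = 0.218). Of the other spots numbered next to an NDH gene, spot 4498 beside OTP85 rose by 0.79 (limma adjusted p = 0.0181) and spot 76 beside NdhS fell by 0.99 on the log2 scale (limma adjusted p = 0.0146). Spot 2515 beside NdhN and spot 1036 beside PIFI did not pass (limma adjusted p = 0.249 and 0.17). How spot numbers map to places on the array is not given in the labels.

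**Figure D3:**
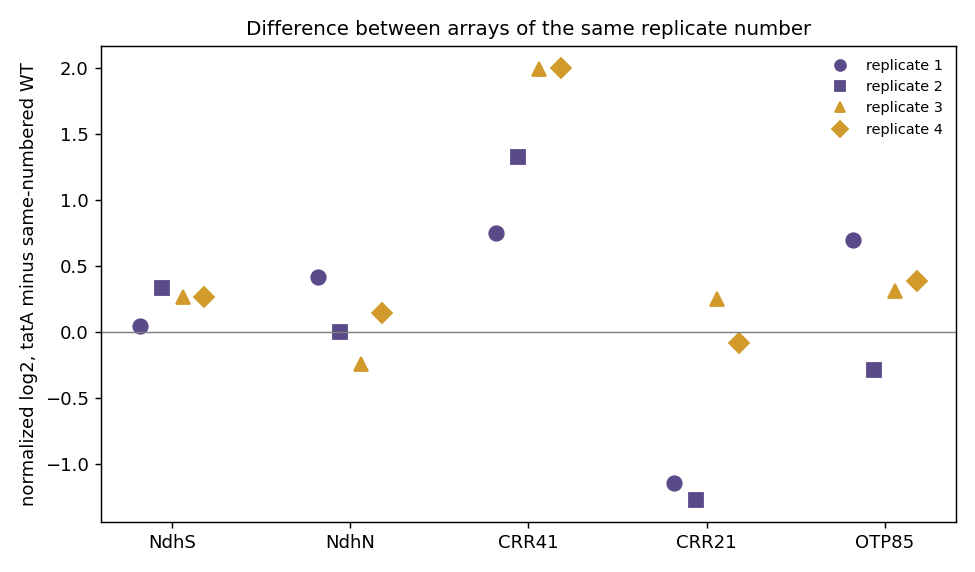
Normalized log2 value of each tatA array minus that of the WT array with the same replicate number, for 5 NDH genes (PIFI, with an array at 0, is left out). CRR41 and NdhS are above 0 in all 4 numbers. CRR21 is at -1.15 and -1.28 in replicates 1 and 2 but at 0.25 and -0.089 in replicates 3 and 4.

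PIFI (AT3G15840, spot 1037) is a chloroplast protein whose mutant lacks the fluorescence rise after illumination that reports on electron entry into plastoquinone. It was the dimmest of these spots. It was listed at 0 on tatA replicate 1 and had 0.0102, 0.0734 and 0.111 on tatA replicates 2 to 4, against 0.0718, 0.0941, 0.0676 and 0.207 on WT replicates 1 to 4. The 2 lowest values were tatA replicates 1 and 2, and tatA replicates 3 and 4 lay within the WT range. The log2 value was -1.67 (SE 1.33, 95% interval -4.69 to 1.34, limma adjusted p = 0.359). It rests on the value set for the 0: it was -0.25 with an offset of 0.118 added before log2 and -0.32 without tatA replicate 1. In replicates 3-4 alone it was 0.31 (limma adjusted p = 0.792).

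**Figure D4:**
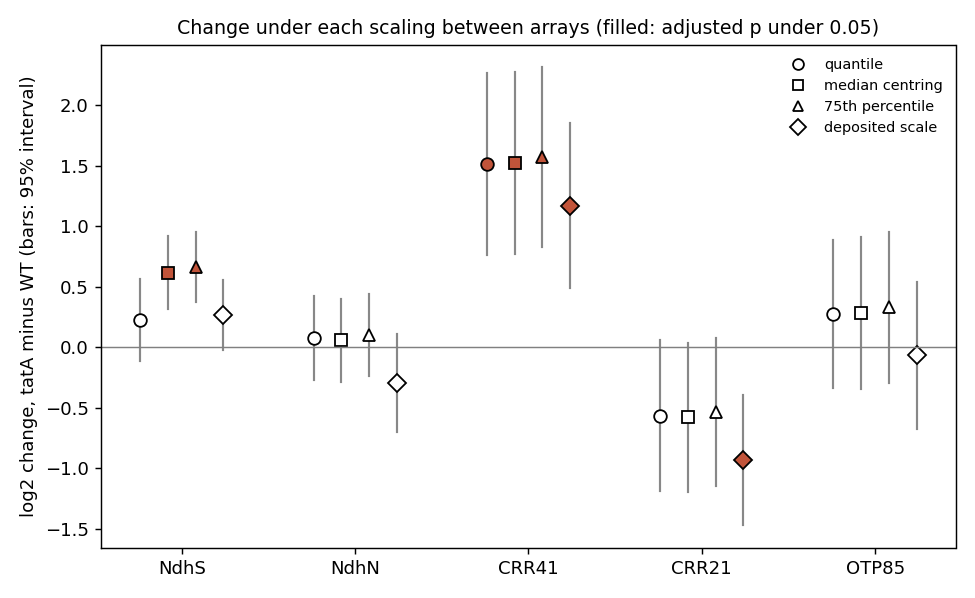
Log2 change (tatA minus WT) of 5 NDH genes with 95% intervals under 4 ways of scaling the arrays to each other, filled where the adjusted p is under 0.05. CRR41 is filled under all 4, NdhS under median centring and 75th percentile scaling, CRR21 on the deposited scale only, and NdhN and OTP85 under none.

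Few other genes of the pathway could be measured. Of 76 loci in 6 lists (nuclear and plastid NDH subunits, assembly, RNA editing and processing for NDH, other plastid RNA editing, and other genes of plastoquinone reduction and cyclic electron flow), 8 had a single-gene spot, the 6 genes above and 2 more. Another 6 loci lay on spots shared by several genes and were not used, and none of the 12 plastid loci of NDH subunits had a single-gene spot. Of the 8, CRR41 rose, 0 fell and 7 did not pass (limma; 0 of these 7 had an unadjusted p under 0.05), where 32.1% of all rows were called, 15.3% as higher and 16.8% as lower, with a median log2 change of 0.15 beside -0.09 for all rows.

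Cpn60beta4 (AT1G26230), the chaperonin subunit known as CRR27 that is needed to fold the subunit NdhH, had intensities of 0.151, 0.115, 0.148 and 0.0359 in tatA, against 0.0776, 0.1197, 0.123 and 0.127 in WT. Of the tatA arrays, 3 lay near or above the WT values and replicate 4 lay below all of them, and the log2 change was 0.28 (SE 0.48, limma adjusted p = 0.672). Leaving out 1 array moved it between 0.087 and 0.71, the higher value being that without tatA replicate 4 (limma adjusted p = 0.162). AT3G22690 (YS1), a PPR protein that edits the plastid RNA polymerase transcript rpoB and not an ndh transcript, had 0.113, 0.174, 0.127 and 0.1203 in tatA, against 0.119, 0.164, 0.251 and 0.150 in WT. Its groups overlapped, with a log2 difference of 0.037 (SE 0.31, limma adjusted p = 0.938).

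Among the other 645 rows with a named locus, those with the profile closest to each NDH gene over the 8 arrays were found by the root mean square difference of normalized log2 values, each gene centred on its own mean. Since the profile holds the step between tatA and WT, this choice fixes the direction of such genes, and their changes are not given as results. AT4G24930 and AT2G46050 were closest to CRR41, with differences of 0.309 and 0.313. AT1G03810 and AT5G48440 were closest to CRR21, with differences of 0.162 and 0.201. AT3G56290 and AT3G13150 were closest to NdhS (0.0556 and 0.0863), AT3G49740 and AT3G28460 to NdhN (0.110 and 0.137), and AT5G61450 and AT1G74070 to OTP85 (0.152 and 0.159). For PIFI the closest, AT3G20150 and AT5G19210, differed by 0.846 and 0.886. This measure is not scaled to the spread of a gene, so its size cannot be compared between genes. PIFI ran from -9.4 on tatA replicate 1, which rests on the value set for its 0, to -2.562 on WT replicate 4.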

How the data were processed

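The file deposited by the authors holds linear spot intensity, 1 column per array. Spot reading, background correction and scaling of the arrays by the authors are not described in the labels. Groups and replicate numbers come from the sample titles. Gene names come from the platform annotation, which gives 1 gene for 692 spots (690 matched to 689 loci of the TAIR10.1 RefSeq annotation, used for names only), several for 870 and none for 1877. The array's genome build is not stated, so genes carry no coordinates.

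Spots at 0 on more than 4 of 8 arrays (177) were left out, other zeros (on 240 spots) took the lowest value above 0 on that array, and log2 values were quantile normalized. Spots of 1 gene were averaged, which left 3261 rows, 646 with a locus. All 6 NDH genes passed this filter. Differences between tatA and WT were fitted in R 4.3.3 with limma 3.58.1 (lmFit, eBayes with intensity trend, group as the only term, two-sided), with Benjamini-Hochberg adjustment over all rows. The fit was tested on simulated data in which the arrays were drawn independently. That test cannot show whether the p-values hold where arrays resemble each other, as they do here. Figures were drawn with matplotlib 3.10.9.

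Named genes follow a fixed rule: the 6 genes, members of the wider lists with a single-gene spot (up to 5 per list), the 2 closest profiles per gene and the spots numbered next to each. The genes and lists were chosen with earlier results of these data known. Same-numbered tatA and WT arrays deviated together from their group means. Their correlations across rows were 0.284, 0.311, 0.266 and 0.337 for replicates 1 to 4, each higher than with any array of another number. The number was therefore taken as pairing the arrays. The main fit does not use this pairing, and the fit with the number as a block is given for CRR41 and where it changes a call. Alternatives were 3 other scalings, 2 treatments of zeros, a filter on dim rows, no intensity trend, the replicate number as a block, replicates 1-2 and 3-4 as a random block, averaged or each alone, centring on neighbouring spot numbers, and leaving out each array.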

Additional observations from a re-analysis of the deposited data

How the results depend on the processing

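Over all rows 1046 passed, with 788 to 947 when 1 array was left out. With replicates 1-2 and 3-4 as a random block 537 passed, and with each pair averaged 57. On the deposited scale the 1390 calls split into 310 higher and 1080 lower in tatA, against 499 and 547 after quantile normalization. Of the 6 NDH genes, and likewise of the 8 genes of the wider lists, 1 passed, where 32.1% of all rows were called. On the deposited scale 2 passed, CRR41 and CRR21, where 42.6% of all rows were called. With median centring and 75th percentile scaling 2 passed, CRR41 and NdhS (31.5% and 30.9% of all rows called). The same 2 passed with the replicate number as a block (31.5% of all rows called) and with replicates 3-4 alone (44.3%). With replicates 1-2 alone, 1 passed, CRR21 in place of CRR41 (CRR41: log2 change 1.04, limma adjusted p = 0.154), where 28.6% of all rows were called. In the random-block fit and the averaged fit 0 passed by limma, with 1 at an unadjusted p under 0.05 in each. Of all rows, 16.5% and 1.75% were called there. Leaving out 1 array gave 1 each time, where 24.2% to 29% of all rows were called. The block on the replicate number changed no other call among the 8 genes.

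All sign turns were in genes that had not passed after quantile normalization with group as the only term, though CRR21 passed in the fits named above. On the deposited scale NdhN was at -0.30, OTP85 at -0.066, Cpn60beta4 at -0.16 and AT3G22690 at -0.32. With replicates 3-4 alone NdhN was at -0.053, CRR21 at 0.081, PIFI at 0.31, Cpn60beta4 at -0.19 and AT3G22690 at -0.21. With centring on neighbouring spot numbers NdhN was at -0.13, OTP85 at -0.12 and AT3G22690 at -0.064, and with spots holding any 0 left out AT3G22690 was at -0.018. Leaving out 1 array moved NdhN between -0.011 and 0.14 and AT3G22690 between -0.11 and 0.18. The cause of these turns was not tested. With spots holding any 0 left out PIFI has no value, and without the dimmest 25% of rows PIFI, OTP85, Cpn60beta4 and AT3G22690 have none.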
